A study of Homo sapiens with 16 samples.

Results

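HSB-2 is an established T-lineage acute lymphoblastic leukemia (T-ALL) line labelled TAL1-positive, and the data described here were the 8 HSB-2 libraries of a 16-library RNA-seq series: 4 libraries of cells with USP7 knock-down against 4 libraries of control cells. The members were taken by sample title. Wild-type HSB-2 cells carried no hairpin (2 libraries), scrambled cells carried a non-targeting control (2 libraries), and the knock-down cells carried either shRNA-4057 or shRNA-4058 against USP7 (2 libraries each). The other 8 libraries were the same 4 groups in Jurkat, a second TAL1-positive T-ALL line. Total RNA was sequenced after ribosomal RNA depletion.

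The USP7 hairpins were delivered by lentivirus, and the study's methods describe a GFP sort or puromycin selection of the transduced cells. How scrambled cells were handled is not given in the sources used here: the series' design text calls their control an shRNA and the sample labels call it siRNA. Wild-type cells carry no treatment in the labels. The hairpins, their delivery and the selection therefore cannot be told apart against wild-type cells. Nothing in the labels says that the paired libraries of a group came from separate transductions, so the spread within a group may be technical. The test of knock-down against control treats both hairpins as replicates of knock-down, and wild-type and scrambled cells as replicates of control. Its error therefore also holds the differences between the hairpins and between the kinds of control. The common biological coefficient of variation was 16.3% in this test and 3.79% with a mean for each group, so libraries of a group were much alike. The test still counts 8 libraries as independent, although they come from 4 groups of 2. Its p-values can therefore be too small. Where each group has its own mean, the error is the spread within groups alone. In either fit the p-values measure only the spread between these libraries.

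USP7 is a deubiquitinase: it removes ubiquitin chains from other proteins and so protects some of them from the proteasome. Among its known clients are MDM2, the ubiquitin ligase that holds p53 low, along with chromatin regulators of the Polycomb and DNA methylation machinery. In T-ALL of the TAL1 type, TAL1 and its LMO2 partner bind the E proteins TCF3 (E2A) and TCF12 (HEB), transcription factors that drive thymocyte maturation. The comparison asks which pathways sit apart from both controls when USP7 is lowered.

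USP7 itself was the check of the labels. It was measured at 222 and 228 CPM in wild-type cells, 213 and 208 in scrambled cells, 136 and 140.1 with shRNA-4057, and 152 and 147 with shRNA-4058. CPM here is counts-per-million after scaling by edgeR's trimmed mean of M values (TMM). In bulk libraries, fewer cells of a kind and less RNA per cell cannot be told apart. All 4 knock-down libraries lay below all 4 controls, with a log2 fold change of −0.60 ± 0.05 (SE, at an adjusted p of 0.00021), which leaves 65.9% of the control level. Every adjusted p below comes from edgeR's quasi-likelihood test of the 4 knock-down libraries against the 4 controls, Benjamini-Hochberg adjusted over all 20185 genes tested, unless another fit is named.

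Of the 20185 genes, 6176 (30.6%) passed the test at an adjusted p of 0.05, 3144 higher (15.6%) and 3032 lower (15%) with the hairpins. A gene was said to have moved away from both controls when it passed and all 4 knock-down libraries also lay beyond all 4 control libraries in CPM. That held for 5785 genes (28.7%), of which 2967 were higher (14.7%) and 2818 lower (14%). Among them, 590 were at least 2-fold higher and 359 at least 2-fold lower. These shares are the background for the pathway counts below. The lists and their members were chosen with earlier results of these data known, so a list share above the background is a description and no test. Most list members are well expressed, and among the 13369 genes averaging 1 CPM or more the shares were larger, with 19.6% higher and 17.6% lower. With scrambled cells as the only control 20.9% of the 20185 genes moved higher and 18.2% lower, and with wild-type cells alone 13.1% and 11.6%.

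The balance between higher and lower genes depended on the scaling. Called genes were 50.9% higher under TMM, 52.4% with DESeq2, 28.5% when library totals alone were used (1956 higher, 4908 lower) and 68.6% with an offset for GC content and gene length (4718 higher, 2158 lower). Among genes averaging 1 CPM or more, the median log2 fold change was 0.00881 under TMM, −0.109 with library totals and 0.102 with the offset. Of all genes tested, 9% moved higher and 22.5% lower with library totals, and 22.2% higher and 9.82% lower with the offset. List counts under these scalings are to be read against those shares.

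**Figure D1:**
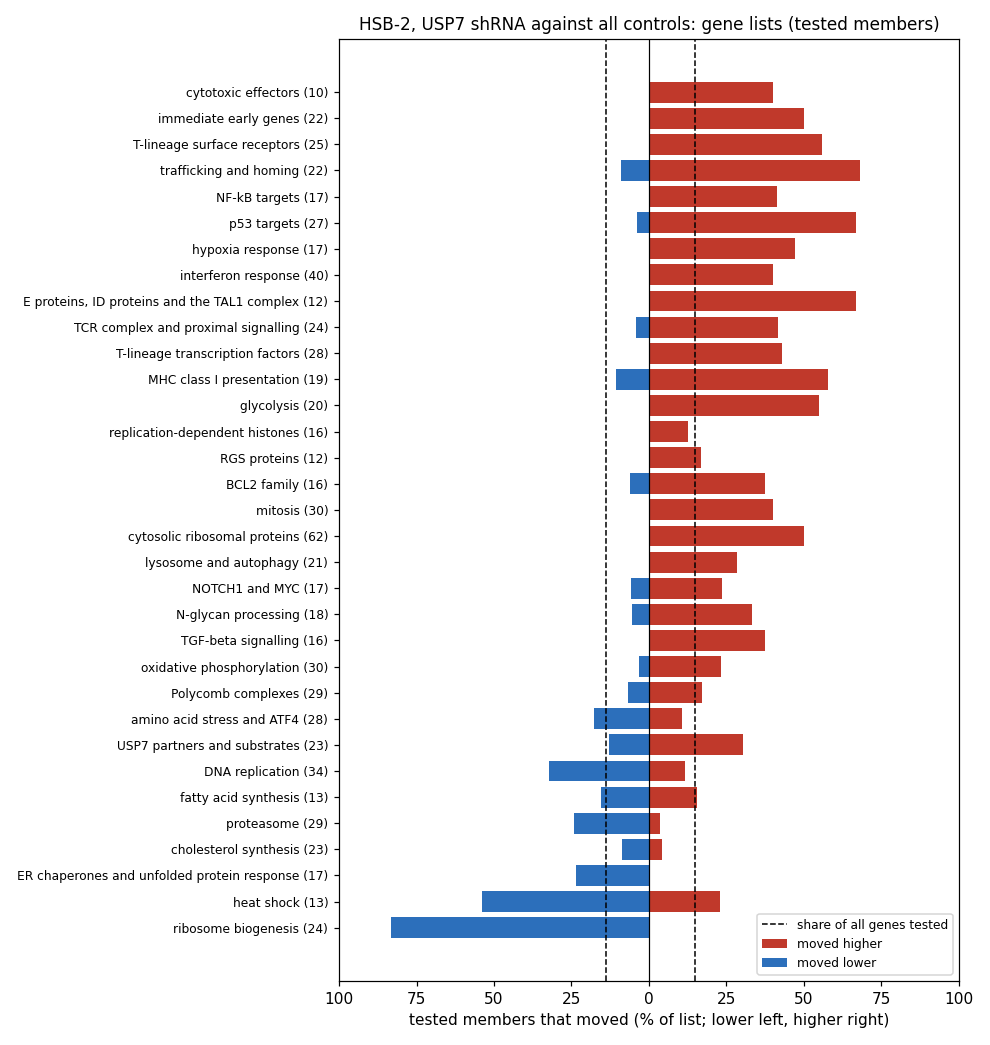
Share of the tested members of each gene list with 10 or more tested that moved away from both controls, in percent, with members that moved lower drawn to the left and higher to the right; the number tested is in parentheses and the dashed lines mark the shares over all genes tested, 14% lower and 14.7% higher. Ribosome biogenesis factors and heat shock genes reach farthest left, while p53 targets, trafficking genes and the TAL1 complex list reach farthest right.

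Ribosome biogenesis factors made up the list that fell most uniformly. These proteins transcribe ribosomal RNA, modify and cut it, and build it into subunits in the nucleolus. Of 24 members tested, 20 moved lower and 0 moved higher, with a median log2 fold change of −0.42 against −0.02 over all genes tested. NOP16, a nucleolar assembly factor of the large subunit, fell by the largest amount among the members. It stood at 24.7 and 24.9 CPM in wild-type cells, 22.2 and 22.2 in scrambled cells, 14.9 and 14.1 with shRNA-4057, and 13.3 and 14.3 with shRNA-4058. The groups did not overlap, and the log2 fold change was −0.73 ± 0.07 (SE, at an adjusted p of 0.00021).

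Members from several steps of the pathway fell. POLR1A and POLR1B are the catalytic subunits of RNA polymerase I, which transcribes ribosomal RNA, and their log2 fold changes were −0.47 ± 0.05 (SE, at an adjusted p of 0.00034) and −0.67 ± 0.09 (SE, at an adjusted p of 0.0011). POLR1B was measured at 44.6 and 42.5 CPM in wild-type cells, 55.2 and 53.7 in scrambled cells, 30.8 and 33.9 with shRNA-4057, and 29.7 and 29.1 with shRNA-4058. DDX21, a nucleolar RNA helicase, was measured at 247 and 248 CPM in wild-type cells, 271 and 258 in scrambled cells, 171 and 180.0 with shRNA-4057, and 179.7 and 182 with shRNA-4058, a log2 fold change of −0.52 ± 0.05 (SE, at an adjusted p of 0.00024). NOP2, which methylates 28S ribosomal RNA, changed by −0.57 ± 0.06 (SE, at an adjusted p of 0.00034), and BOP1, a part of the large-subunit PeBoW complex, by −0.69 ± 0.07 (SE, at an adjusted p of 0.00026). Nucleolin (NCL), the abundant nucleolar phosphoprotein, fell by less, with a log2 fold change of −0.24 ± 0.04 (SE, at an adjusted p of 0.004), and that call was lost under the GC and length offset.

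The 4 members that did not move were FBL, UBTF, NPM1 and PPAN. FBL, the methyltransferase of the box C/D particles, had a log2 fold change of 0.08 ± 0.08 (SE, at an adjusted p of 0.45), UBTF, the activator of RNA polymerase I, −0.02 ± 0.06 (SE, at an adjusted p of 0.8), and the histone chaperone NPM1 −0.11 ± 0.08 (SE, at an adjusted p of 0.3). The count held across settings: 21 members fell against scrambled cells alone, 21 against wild-type cells alone, 21 with library totals and 19 under the GC and length offset.

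MYC, the transcription factor known for driving ribosome biogenesis genes, also moved lower. It was measured at 335 and 340.3 CPM in wild-type cells, 386 and 406 in scrambled cells, 254 and 248 with shRNA-4057, and 302 and 310.4 with shRNA-4058. The groups did not overlap, and the log2 fold change was −0.40 ± 0.09 (SE, at an adjusted p of 0.011). Against wild-type cells alone the call was lost (adjusted p = 0.052). MYCN, its paralog, moved the other way, with a log2 fold change of 0.94 ± 0.22 (SE, at an adjusted p of 0.011).

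MYC binds the E-box CACGTG, a motif that reads the same on both strands, and its matches in the promoters of the list were counted as a description. The RefSeq promoters used ran from 250 bases before to 50 after the start of transcription on GRCh38.p14. Of 19 members with such a promoter, 6 held the letters CACGTG (31.6%), against 7.43% of all 27305 promoters. Among the 15 that moved, 5 held them. The motif was chosen after the fall of the list and of MYC was seen. The promoters of NOP2 (chr12:6568242-6568541, minus strand) and WDR43 (chr2:28894417-28894716, plus strand), a small-subunit processome protein whose log2 fold change was −0.56 ± 0.05 (SE, at an adjusted p of 0.00023), are printed 5′ to 3′ as 2 of the falling genes with the motif near the start site. Capitals mark it.
NOP2: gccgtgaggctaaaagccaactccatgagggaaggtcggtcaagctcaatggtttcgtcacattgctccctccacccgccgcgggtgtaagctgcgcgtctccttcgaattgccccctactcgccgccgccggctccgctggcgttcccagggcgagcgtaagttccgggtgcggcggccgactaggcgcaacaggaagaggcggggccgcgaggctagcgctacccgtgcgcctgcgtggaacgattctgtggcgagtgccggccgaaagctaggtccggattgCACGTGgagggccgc
WDR43: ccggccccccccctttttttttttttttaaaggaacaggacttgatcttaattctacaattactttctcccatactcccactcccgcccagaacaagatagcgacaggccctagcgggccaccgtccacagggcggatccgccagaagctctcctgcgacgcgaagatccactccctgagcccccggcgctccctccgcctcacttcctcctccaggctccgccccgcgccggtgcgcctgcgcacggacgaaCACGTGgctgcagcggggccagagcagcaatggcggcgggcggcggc
Counting the start as 1, the motif began at base 36 in NOP2 and at base 4 in WDR43. A match of letters says nothing about whether MYC was bound.

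Cytosolic ribosomal proteins, the structural proteins of the finished ribosome, did not follow the assembly factors. Of 62 tested, 31 moved higher and 0 lower, with a median log2 fold change of 0.20. RPS19 had the largest difference and was measured at 553 and 557 CPM in wild-type cells, 548 and 587 in scrambled cells, 803 and 778 with shRNA-4057, and 776 and 822 with shRNA-4058, a log2 fold change of 0.50 ± 0.05 (SE, at an adjusted p of 0.00026). RPL12 followed with 0.37 ± 0.07 (SE, at an adjusted p of 0.0045) and RPS3 with 0.35 ± 0.06 (SE, at an adjusted p of 0.0023). This count moved with the scaling and the control: 9 members moved higher with library totals, 47 under the GC and length offset, 55 against wild-type cells alone and 22 against scrambled cells alone. Many ribosomal protein genes have near-identical processed copies elsewhere in the genome that can share reads, so single members are uncertain.

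**Figure D2:**
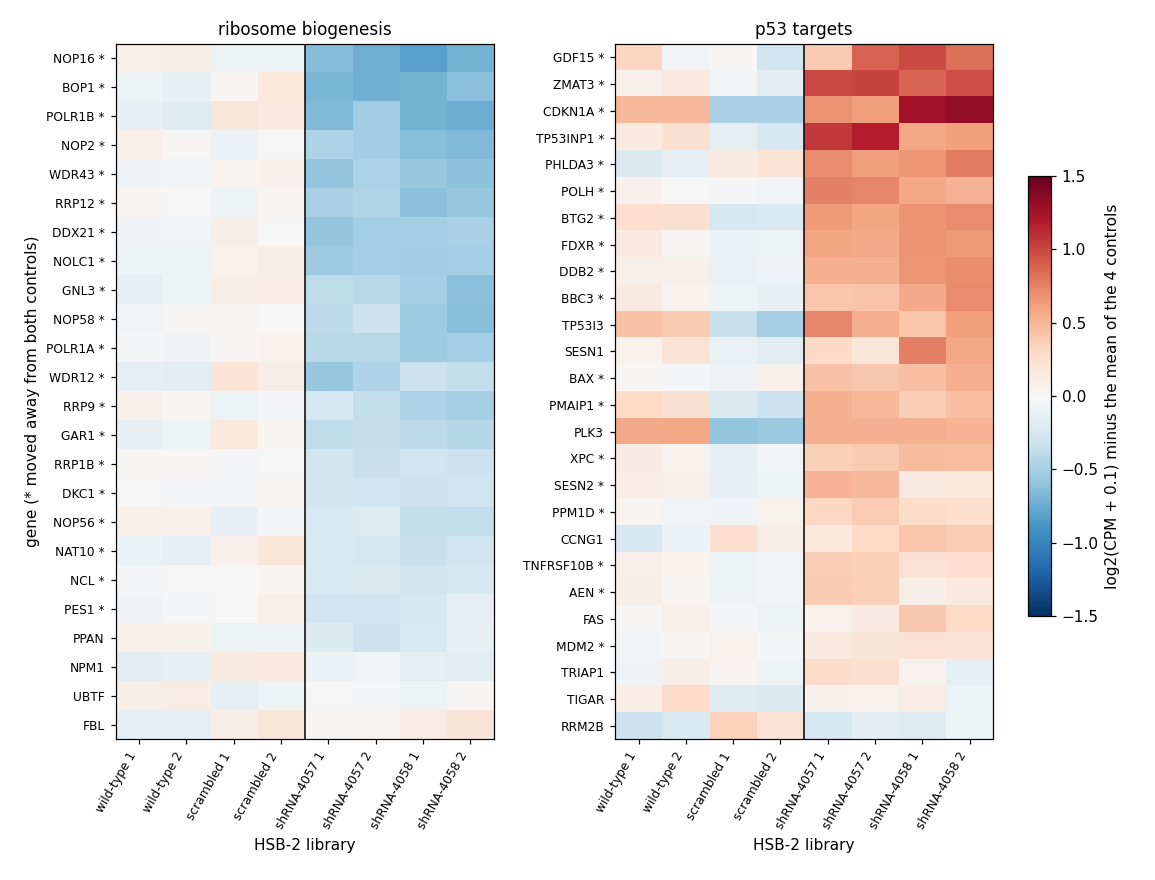
Log2(CPM + 0.1) of each tested ribosome biogenesis gene (left) and of 26 of the 27 tested p53 targets (right) in the 8 HSB-2 libraries, less the mean of the 4 controls; rows are genes, columns are libraries, and an asterisk marks genes that moved away from both controls. The 4 knock-down columns are blue for the 20 biogenesis genes that fell and red for the 18 p53 targets that rose.

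p53 target genes rose. The list held genes that p53 is known to activate directly, covering cell cycle arrest, DNA repair, apoptosis and feedback on p53. Of 27 tested, 18 moved higher and 1 lower, and the median log2 fold change was 0.44. Against wild-type cells alone 14 moved higher, and against scrambled cells alone 21. ZMAT3, a zinc finger RNA-binding protein, was measured at 50.8 and 53.8 CPM in wild-type cells, 47.3 and 43.6 in scrambled cells, 97.0 and 98.2 with shRNA-4057, and 89.6 and 95.1 with shRNA-4058. The lowest knock-down library (89.6 CPM) was above the highest control (53.8 CPM), for a log2 fold change of 0.96 ± 0.07 (SE, at an adjusted p of 7.1e-05).

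CDKN1A encodes p21, the cyclin-dependent kinase inhibitor. Its level was 81.4 and 81.4 CPM in wild-type cells, 41.1 and 41.1 in scrambled cells, 92.0 and 89.6 with shRNA-4057, and 139 and 144 with shRNA-4058. The scrambled libraries were lowest, the wild-type libraries came next, and shRNA-4058 was above shRNA-4057 by a log2 difference of 0.64 (adjusted p = 3.9e-13 in edgeR's 4-group fit). The pooled log2 fold change was 0.92 ± 0.27 (SE, at an adjusted p of 0.027). The call was lost against wild-type cells alone (adjusted p = 0.096) and when either scrambled library or either shRNA-4058 library was left out (adjusted p up to 0.077).

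Among the genes of the list with a role in DNA repair, POLH, the translesion polymerase, had a log2 fold change of 0.65 ± 0.06 (SE, at an adjusted p of 0.00026), and DDB2, which recognises UV lesions, 0.61 ± 0.06 (SE, at an adjusted p of 0.00031). Among the genes that act in apoptosis, BAX was measured at 77.7 and 74.9 CPM in wild-type cells, 73.8 and 79.9 in scrambled cells, 104 and 101 with shRNA-4057, and 104 and 112 with shRNA-4058, with similar levels in the 2 controls and a log2 fold change of 0.46 ± 0.05 (SE, at an adjusted p of 0.00041). BBC3 (PUMA), a BH3-only activator, changed by 0.53 ± 0.09 (SE, at an adjusted p of 0.0022), PHLDA3, an AKT inhibitor, by 0.69 ± 0.09 (SE, at an adjusted p of 0.00096), and the stress protein TP53INP1 by 0.87 ± 0.16 (SE, at an adjusted p of 0.0033).

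MDM2 itself, both a p53 target and a USP7 client, rose slightly. It was measured at 139.9 and 145 CPM in wild-type cells, 149 and 140.1 in scrambled cells, 159 and 164 with shRNA-4057, and 167 and 165 with shRNA-4058, a log2 fold change of 0.19 ± 0.04 (SE, at an adjusted p of 0.011), and the call was lost with library totals. GDF15, a secreted stress cytokine, headed the list by fold change but rested on few reads: 35 counts over the 4 controls against 78 over the 4 knock-down libraries, a ratio of 3.03 (95% exact counting interval 2.01 to 4.65). SESN1 and CCNG1 passed the test, but their groups overlapped, and the calls were lost without 4 libraries (both scrambled and both shRNA-4058, adjusted p up to 0.077) and 6 libraries (all but the first of scrambled and of shRNA-4057, adjusted p up to 0.12).

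Genes of neighbouring lists were also counted. Of 16 BCL2 family members tested, 6 moved higher and 1 lower, with BIK, a pro-apoptotic BH3-only protein, at a log2 fold change of 0.59 ± 0.07 (SE, at an adjusted p of 0.00073) and BCL2L2 (BCL-w), a survival protein, at −0.79 ± 0.17 (SE, at an adjusted p of 0.0085). BBC3, BAX and PMAIP1 were on the p53 list too, and PMAIP1 (NOXA) lost its call without any 1 scrambled or knock-down library (adjusted p up to 0.09). BCL2A1, a survival protein and NF-kB target, had the largest difference, 1.20 ± 0.38 (SE, at an adjusted p of 0.038), and lost its call without the same libraries (adjusted p up to 0.099). Among 23 tested partners and substrates of USP7, 7 moved higher and 3 lower, USP7 included. With library totals 2 were higher and 8 lower, and the median log2 fold change turned from 0.03 to −0.09. The forkhead transcription factors FOXO1, FOXO3 and FOXO4, of which FOXO4 is a known substrate, all moved higher, with FOXO3 at 0.48 ± 0.06 (SE, at an adjusted p of 0.00056). FOXO4 lost its call without either scrambled or either shRNA-4058 library (adjusted p up to 0.079).

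Heat shock genes moved in both directions. Of 13 tested, 7 moved lower and 3 higher. HSPH1 (HSP110), a disaggregase co-chaperone, was measured at 147 and 151 CPM in wild-type cells, 170.0 and 168 in scrambled cells, 88.7 and 88.4 with shRNA-4057, and 89.7 and 82.8 with shRNA-4058. The groups were well apart, and the log2 fold change was −0.86 ± 0.06 (SE, at an adjusted p of 6.9e-05). The mitochondrial chaperonin pair fell as well: HSPE1 had a log2 fold change of −0.92 ± 0.11 (SE, at an adjusted p of 0.00064) and HSPD1, its partner, −0.45 ± 0.09 (SE, at an adjusted p of 0.0063). The cytosolic chaperone HSP90AA1 changed by −0.48 ± 0.06 (SE, at an adjusted p of 0.00064) and the constitutive HSP70 member HSPA8 by −0.35 ± 0.07 (SE, at an adjusted p of 0.0046). The 3 members that moved higher were BAG3, DNAJB1 and HSF1, and 1 did with library totals or against wild-type cells alone. BAG3, a co-chaperone of selective autophagy, had a log2 fold change of 0.52 ± 0.10 (SE, at an adjusted p of 0.0052). The DNAJB1 call was lost without either scrambled or either shRNA-4058 library (adjusted p up to 0.095) and the HSF1 call without 6 of the 8 libraries, all but the first wild-type and the second shRNA-4057 library (adjusted p up to 0.086).

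Endoplasmic reticulum (ER) chaperones and unfolded protein response genes held 4 members that moved lower and 0 higher of 17 tested, or 23.5%. Of all genes tested, 28.7% moved in either direction and 14% lower. Among genes averaging 1 CPM or more these shares were 37.3% and 17.6%, so the list was near the background. XBP1, the transcription factor of the IRE1 branch, was measured at 183 and 179.7 CPM in wild-type cells, 192 and 196 in scrambled cells, 101 and 100.5 with shRNA-4057, and 110.3 and 111 with shRNA-4058. The groups were far apart, with a log2 fold change of −0.83 ± 0.06 (SE, at an adjusted p of 6.4e-05). HYOU1, an ER chaperone, followed with −0.45 ± 0.08 (SE, at an adjusted p of 0.0041), HSP90B1 (GRP94), the ER form of HSP90, changed by −0.35 ± 0.05 (SE, at an adjusted p of 0.00088), and the lectin chaperone CALR, counted here with class I antigen presentation, changed by −0.45 ± 0.05 (SE, at an adjusted p of 0.0005). The ER count was 11 with library totals, 7 against wild-type cells alone and 3 under the GC and length offset. Proteasome subunits had 7 of 29 lower and 1 higher, or 27.6% in either direction, also near the background. PSMA2, PSMA4 and PSMD12 led, with log2 fold changes of −0.51, −0.40 and −0.38, and PSMA2 lost its call without the second shRNA-4058 library (adjusted p = 0.054). The lower count went to 19 with library totals and 2 under the offset, where the list's median turned from −0.07 to 0.02.

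**Figure D3:**
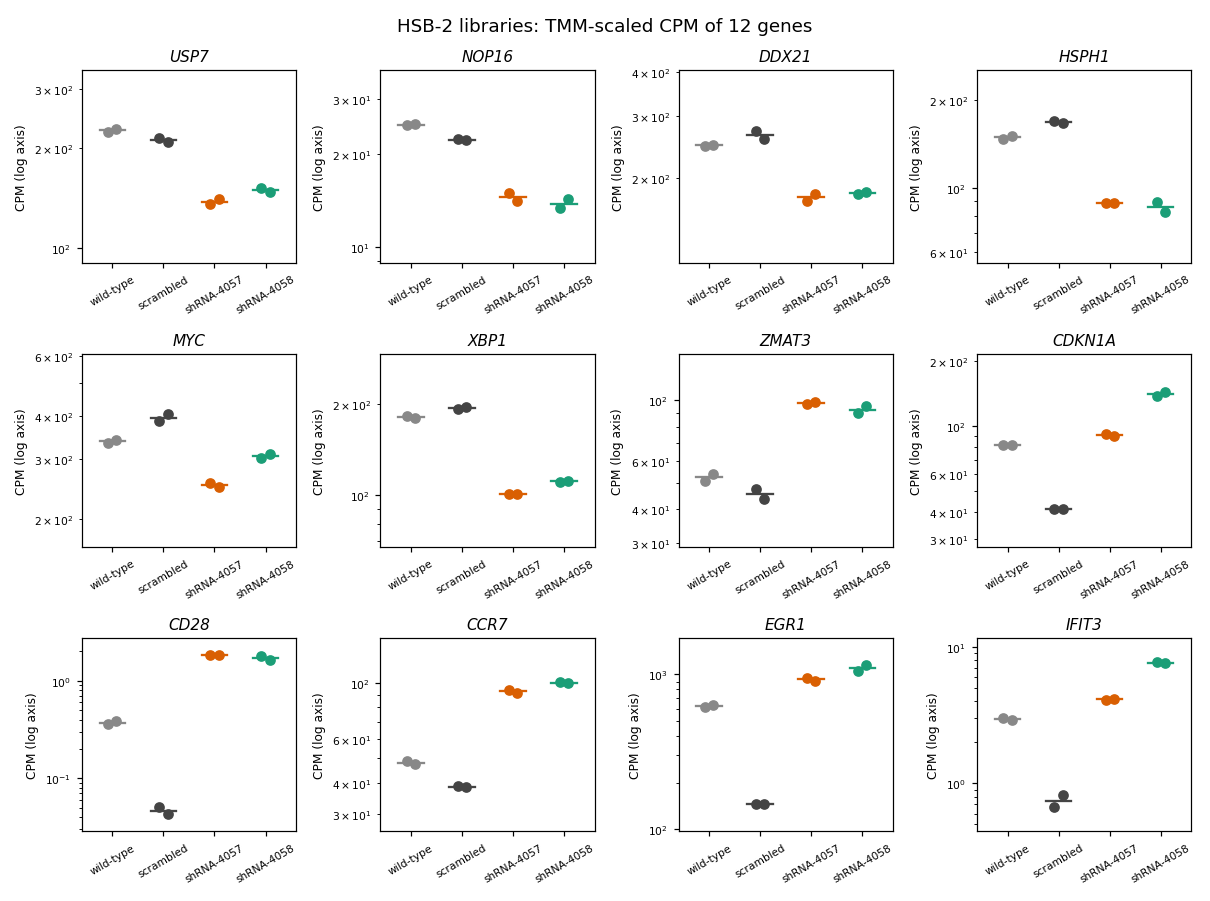
TMM-scaled CPM (log axis) of 12 genes in the 8 HSB-2 libraries; each point is 1 library and each bar the mean of the 2 libraries of a group. USP7, NOP16, DDX21, HSPH1, MYC and XBP1 are lower in all 4 knock-down libraries than in any control, and ZMAT3, CDKN1A, CD28, CCR7, EGR1 and IFIT3 are higher, with scrambled far below wild-type for CD28, EGR1 and IFIT3.

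T-lineage genes that moved were mostly higher. Surface receptors of T cells had 14 of 25 tested members higher and 0 lower, with a median log2 fold change of 0.77. CD28, the costimulatory receptor, was measured at 0.358 and 0.386 CPM in wild-type cells, 0.0503 and 0.0430 in scrambled cells, 1.83 and 1.82 with shRNA-4057, and 1.80 and 1.62 with shRNA-4058. Scrambled cells had the least, wild-type cells more, and the knock-down libraries lay within 1.62 to 1.83 CPM, for a log2 fold change of 3.12 ± 0.59 (SE, at an adjusted p of 0.0044). CD8A, a coreceptor, changed by 1.66 ± 0.51 (SE, at an adjusted p of 0.033), a call lost without the second scrambled library or either shRNA-4058 library (adjusted p up to 0.083). CD5, which dampens T-cell receptor signals, was far more abundant, at 178 and 175 CPM in wild-type cells, 139 and 144 in scrambled cells, 261 and 251 with shRNA-4057, and 299 and 309 with shRNA-4058, a log2 fold change of 0.82 ± 0.10 (SE, at an adjusted p of 0.0007). IL2RA, the alpha chain of the IL-2 receptor, changed by 1.22 ± 0.18 (SE, at an adjusted p of 0.0014), the ectoenzyme CD38 by 0.99 ± 0.16 (SE, at an adjusted p of 0.0022) and the scavenger-type receptor CD6 by 0.77 ± 0.10 (SE, at an adjusted p of 0.00079).

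The T-cell receptor (TCR) complex and its proximal signalling list had 10 of 24 tested members higher and 1 lower. CD3E and CD3D, invariant chains of the receptor, had log2 fold changes of 0.52 ± 0.06 (SE, at an adjusted p of 0.00041) and 0.62 ± 0.12 (SE, at an adjusted p of 0.0047). CD3E was measured at 316 and 313 CPM in wild-type cells, 273 and 288 in scrambled cells, 431 and 422 with shRNA-4057, and 429.5 and 428 with shRNA-4058. UBASH3B, a phosphatase that attenuates TCR signals, changed by 1.11 ± 0.13 (SE, at an adjusted p of 0.0005), PTPN22, a phosphatase of the same kind of role, by 0.91 ± 0.31 (SE, at an adjusted p of 0.048) and THEMIS, needed for thymocyte selection, by 1.01 ± 0.17 (SE, at an adjusted p of 0.0026). PTPRC (CD45) was the member that moved lower, at −0.20 ± 0.05 (SE, at an adjusted p of 0.017). Under the GC and length offset its log2 fold change was 0.04 and it no longer passed, nor did it without the second wild-type or either shRNA-4058 library (adjusted p up to 0.053). PTPN22 lost its call without any 1 scrambled or knock-down library (adjusted p up to 0.099). Against scrambled cells alone 22 of these members moved higher, and against wild-type cells alone 9 moved higher and 4 lower, with a median log2 fold change of 0.10.

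Transcription factors of the lineage had 12 of 28 tested members higher and 0 lower. TCF7, which commits progenitors to the T lineage, was measured at 248 and 242 CPM in wild-type cells, 189 and 199 in scrambled cells, 381 and 371 with shRNA-4057, and 361 and 372 with shRNA-4058, a log2 fold change of 0.76 ± 0.09 (SE, at an adjusted p of 0.0005) with no overlap. PRDM1 (BLIMP1) and TBX21 (T-bet), factors of effector cells, had log2 fold changes of 1.14 ± 0.31 (SE, at an adjusted p of 0.021) and 1.05 ± 0.22 (SE, at an adjusted p of 0.0073). PRDM1 lost its call without the second scrambled or either shRNA-4058 library (adjusted p up to 0.064). RUNX3, a factor of CD8 T cells, changed by 0.80 ± 0.12 (SE, at an adjusted p of 0.0016), GATA3 by 0.55 ± 0.09 (SE, at an adjusted p of 0.0025) and ETS1 by 0.53 ± 0.07 (SE, at an adjusted p of 0.00073). Of the defining markers of the T lineage, 10 of 10 were tested and 6 moved higher, so the labelled lineage had its markers in these libraries.

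E proteins, their ID inhibitors and the TAL1 complex had 8 of 12 tested members higher and 0 lower, and 5 with library totals or against wild-type cells alone. CBFA2T3 (ETO2), a corepressor of the TAL1 complex, was measured at 52.5 and 53.3 CPM in wild-type cells, 35.5 and 35.4 in scrambled cells, 75.1 and 74.2 with shRNA-4057, and 90.4 and 97.6 with shRNA-4058. The groups did not overlap, for a log2 fold change of 0.93 ± 0.16 (SE, at an adjusted p of 0.0025). LYL1, a close relative of TAL1, changed by 0.89 ± 0.18 (SE, at an adjusted p of 0.0062), the TAL1 partner LMO2 by 0.52 ± 0.11 (SE, at an adjusted p of 0.0064) and ID3, which sequesters E proteins, by 0.66 ± 0.14 (SE, at an adjusted p of 0.0071). TAL1 differed little, at 0.23 ± 0.07 (SE, at an adjusted p of 0.023), as did TCF12, at 0.17 ± 0.05 (SE, at an adjusted p of 0.035). Leaving out 1 library ended these calls for 4 libraries (both scrambled and both shRNA-4058) and for 6 libraries (all but those of shRNA-4058), in that order. TCF3 did not pass, at 0.03 ± 0.05 (SE, at an adjusted p of 0.72).

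A short list of genes tied to E proteins held no member that moved. It held RAG1 and PTCRA, known E-protein targets, RAG2 and CD69, which lie near sites shared by E proteins and TAL1, and the thymocyte genes CD1A, CD1B and CD1E. Of the 7 entries, 3 had enough reads to test. By gene set enrichment analysis, the study reported lower E-protein targets in HSB-2 hairpin cells than in scrambled cells. Its target set came from knock-downs of E2A, HEB and TAL1 and was not tested here. Its methods describe RAG1 and PTCRA as not expressed in HSB-2. CD69, an activation marker, had a log2 fold change of 1.01 ± 0.43 (SE, at an adjusted p of 0.098) and CD1A, a lipid-presenting molecule of cortical thymocytes, −0.32 ± 0.21 (SE, at an adjusted p of 0.27). RAG1, a recombinase subunit whose gene overlaps RAG2, held 61 counts over the controls and 40 over the knock-down libraries, a ratio of 0.891 (95% exact counting interval 0.583 to 1.35). RAG2, PTCRA, CD1B and CD1E reached no more than 17 counts in any HSB-2 library. CD1A was measured at 7.71 and 7.0 CPM in wild-type cells, 4.34 and 4.00 in scrambled cells, 4.58 and 5.11 with shRNA-4057, and 4.02 and 4.76 with shRNA-4058: the knock-down libraries lay below wild-type cells and within or just above the range of scrambled cells.

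Trafficking and homing genes had 15 of 22 tested members higher and 2 lower, and 9 higher when either shRNA-4058 library was left out. CCR7, the lymph node homing receptor, was measured at 49.0 and 47.4 CPM in wild-type cells, 38.8 and 38.4 in scrambled cells, 94.3 and 91.5 with shRNA-4057, and 101 and 100 with shRNA-4058, a log2 fold change of 1.16 ± 0.09 (SE, at an adjusted p of 8.9e-05). KLF2, a transcription factor of quiescent and recirculating T cells, stood at 5.87 and 5.08 CPM in wild-type cells, 2.43 and 2.71 in scrambled cells, 18.6 and 16.9 with shRNA-4057, and 10.8 and 10.7 with shRNA-4058, with shRNA-4057 above shRNA-4058 and a log2 fold change of 1.83 ± 0.31 (SE, at an adjusted p of 0.0027). ITGA5, the alpha chain of the fibronectin receptor, changed by 0.80 ± 0.08 (SE, at an adjusted p of 0.00031). CCR9, the gut and thymus homing receptor, passed on few reads: 28 counts over the controls and 85 over the knock-down libraries, a ratio of 4.13 (95% exact counting interval 2.66 to 6.57), and leaving out the first scrambled library or any knock-down library ended its call (adjusted p up to 0.089).

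Cytotoxic effector genes had 4 of 10 tested members higher and 0 lower. By the test alone, overlap of groups aside, 5 were higher and 1 lower, and the lowest log2 fold change of the list was −1.95. Against scrambled cells alone 7 moved higher and 1 lower. GNLY (granulysin), a pore-forming granule protein, was measured at 68.3 and 66.4 CPM in wild-type cells, 11.8 and 13.5 in scrambled cells, 172 and 169.9 with shRNA-4057, and 169 and 177 with shRNA-4058, a log2 fold change of 2.11 ± 0.54 (SE, at an adjusted p of 0.016), and the granule protease GZMA changed by 1.24 ± 0.28 (SE, at an adjusted p of 0.0089). KLRB1 (CD161), a lectin receptor, changed by 1.63 ± 0.53 (SE, at an adjusted p of 0.042) and lost its call without any 1 scrambled or knock-down library (adjusted p up to 0.087). In all 3, scrambled cells held the least and the wild-type libraries lay between them and the knock-down libraries.

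Immediate early genes, which respond within minutes to receptor signals, had 11 of 22 tested members higher and 0 lower, with a median log2 fold change of 0.92. EGR1, a zinc finger transcription factor, was measured at 616 and 630.5 CPM in wild-type cells, 145 and 146 in scrambled cells, 952 and 907 with shRNA-4057, and 1050 and 1145 with shRNA-4058. The knock-down libraries were highest, the wild-type libraries were next and the scrambled libraries were far lower. The log2 fold change was 1.40 ± 0.47 (SE, at an adjusted p of 0.046). The call was lost with library totals and without any 1 scrambled or knock-down library (adjusted p up to 0.1). NR4A1, a nuclear receptor induced by TCR signals, changed by 1.44 ± 0.39 (SE, at an adjusted p of 0.02) and DUSP4, a phosphatase of the MAP kinases, by 1.5 ± 0.36 (SE, at an adjusted p of 0.013). FOS had a log2 fold change of 1.58 ± 0.62 (SE, at an adjusted p of 0.08) and did not pass. Over the list, the median was 0.52 against wild-type cells and 1.68 against scrambled cells, and 21 of 22 moved higher when scrambled cells were the only control. With wild-type cells as the only control 14 moved higher and 1 lower.

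NF-kB targets had 7 of 17 tested members higher and 0 lower. TNF, the inflammatory cytokine, was measured at 163 and 164 CPM in wild-type cells, 79.9 and 82.0 in scrambled cells, 219.6 and 222 with shRNA-4057, and 302 and 323 with shRNA-4058, a log2 fold change of 1.12 ± 0.26 (SE, at an adjusted p of 0.01), and TRAF1, a signalling adaptor, changed by 0.76 ± 0.10 (SE, at an adjusted p of 0.00092). BCL3, a nuclear partner of NF-kB, led the list at 1.30 ± 0.42 (SE, at an adjusted p of 0.041) and lost its call without any 1 scrambled or knock-down library (adjusted p up to 0.091). The count fell to between 2 and 4 without any 1 of the scrambled or knock-down libraries, to 4 with library totals or the replicate block, and reached 14 against scrambled cells alone. TGF-beta signalling genes had 6 of 16 higher and 0 lower, a count of 2 or 3 without any 1 scrambled or shRNA-4058 library and 3 with library totals. SMAD7, the inhibitory SMAD, changed by 1.15 ± 0.23 (SE, at an adjusted p of 0.005), and SKIL, a repressor of SMADs, by 0.53 ± 0.15 (SE, at an adjusted p of 0.027), a call lost without either scrambled library or the second library of either hairpin (adjusted p up to 0.072).

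Interferon response genes had 16 of 40 tested members higher and 0 lower, with a median log2 fold change of 0.40. RSAD2 (viperin), an antiviral enzyme, stood at 24.9 and 25.2 CPM in wild-type cells, 23.8 and 24.0 in scrambled cells, 32.9 and 32.7 with shRNA-4057, and 37.4 and 36.3 with shRNA-4058, with the controls alike and a log2 fold change of 0.51 ± 0.06 (SE, at an adjusted p of 0.00053). EPSTI1, an interferon-induced gene, changed by 0.86 ± 0.11 (SE, at an adjusted p of 0.00069) and IRF1, an interferon-induced transcription factor, by 0.74 ± 0.15 (SE, at an adjusted p of 0.0055).

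Other members of that list turned on the control. IFIT3, an antiviral RNA-binding protein, was measured at 3.01 and 2.91 CPM in wild-type cells, 0.668 and 0.816 in scrambled cells, 4.08 and 4.15 with shRNA-4057, and 7.72 and 7.55 with shRNA-4058. The scrambled libraries were far below the wild-type libraries, and the log2 fold change of 1.68 ± 0.49 (SE, at an adjusted p of 0.029) no longer passed without the second scrambled library or either shRNA-4058 library (adjusted p up to 0.077). GBP2, a guanylate-binding protein, and IFIT2, a relative of IFIT3, had log2 fold changes of 1.47 ± 0.45 (SE, at an adjusted p of 0.033) and 1.30 ± 0.37 (SE, at an adjusted p of 0.026), and both lost their calls without either scrambled or either shRNA-4058 library (adjusted p up to 0.089). MX1, a classic interferon target, had a log2 fold change of 0.01 ± 0.05 (SE, at an adjusted p of 0.87). The count was 31 against scrambled cells alone and 12 against wild-type cells alone, 9 without the second scrambled library and 10 without the first shRNA-4058 library.

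Interferon-induced genes share the interferon-stimulated response element, whose core GAAANNGAA was searched on both strands of the same promoter windows. Of 31 members with a promoter, 21 held it (67.7%), against 8.29% of all 27305 promoters. Among the 13 that moved, 10 held it. RSAD2 (chr2:6865635-6865934, plus strand) and IFIT3 (chr10:89327747-89328046, plus strand) are printed as a member whose controls were alike and a member whose controls differed, both on GRCh38.p14, with the matches in capitals.
RSAD2: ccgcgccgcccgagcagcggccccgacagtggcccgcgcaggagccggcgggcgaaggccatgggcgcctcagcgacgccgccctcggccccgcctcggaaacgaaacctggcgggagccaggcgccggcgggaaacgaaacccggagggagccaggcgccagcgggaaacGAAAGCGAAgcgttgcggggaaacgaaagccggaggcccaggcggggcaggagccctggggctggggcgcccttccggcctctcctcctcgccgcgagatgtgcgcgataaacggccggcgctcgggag
IFIT3: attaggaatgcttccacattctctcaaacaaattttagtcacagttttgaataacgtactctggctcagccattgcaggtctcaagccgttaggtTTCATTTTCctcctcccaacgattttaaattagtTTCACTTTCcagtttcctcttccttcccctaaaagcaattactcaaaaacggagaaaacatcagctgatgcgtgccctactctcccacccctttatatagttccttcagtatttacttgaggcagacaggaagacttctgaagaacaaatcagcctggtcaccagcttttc
The 2 matches in IFIT3 lie on the opposite strand, as the reverse complement of the core, and the match in RSAD2 lies 79 bases before the start. Both were picked from moved members that held a match. Whether the motif differs between members with like and unlike controls was not tested.

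Class I antigen presentation genes had 11 of 19 tested members higher and 2 lower. HLA-F, a nonclassical class I gene, changed by 0.93 ± 0.15 (SE, at an adjusted p of 0.0023). HLA-B was measured at 619.5 and 634 CPM in wild-type cells, 426 and 447 in scrambled cells, 911 and 880.3 with shRNA-4057, and 966 and 996 with shRNA-4058, a log2 fold change of 0.82 ± 0.13 (SE, at an adjusted p of 0.002), and PSMB10, an immunoproteasome subunit, changed by 0.90 ± 0.16 (SE, at an adjusted p of 0.0029). HLA genes are polymorphic and alike in sequence, so reads can be shared between them or lost against the reference, and single HLA values are uncertain. Class II genes were low: of 4 tested, HLA-DRB1 and HLA-DQB1 moved higher, at no more than 1.77 CPM in any library, and 1 did without the first shRNA-4058 library, where HLA-DQB1 no longer passed (adjusted p = 0.052).

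Glycolysis and hypoxia genes rose in part. Of 20 glycolysis genes tested, 11 moved higher and 0 lower, 7 with library totals and 17 against wild-type cells alone. GPI, the second enzyme of the pathway, was measured at 1395 and 1414 CPM in wild-type cells, 1361 and 1442 in scrambled cells, 2108 and 2036 with shRNA-4057, and 3127 and 3165 with shRNA-4058, with shRNA-4058 above shRNA-4057 and a log2 fold change of 0.90 ± 0.14 (SE, at an adjusted p of 0.0022). ALDOC, an aldolase, changed by 1.01 ± 0.16 (SE, at an adjusted p of 0.002), the glucose transporter SLC2A3 by 0.77 ± 0.10 (SE, at an adjusted p of 0.00096) and GAPDH by 0.38 ± 0.07 (SE, at an adjusted p of 0.0034). Of 17 hypoxia response genes, 8 moved higher and 0 lower, and 13 moved higher against wild-type cells alone. EGLN3, an oxygen-sensing hydroxylase, was measured at 73.8 and 73.9 CPM in wild-type cells, 62.4 and 66.2 in scrambled cells, 151 and 151 with shRNA-4057, and 134 and 132 with shRNA-4058, a log2 fold change of 1.04 ± 0.07 (SE, at an adjusted p of 7.1e-05), ANKRD37 changed by 1.19 ± 0.08 (SE, at an adjusted p of 6.9e-05) and P4HA2, a collagen hydroxylase at no more than 0.638 CPM, by 1.66 ± 0.40 (SE, at an adjusted p of 0.012). The peptide hormone ADM stood at 0.321 and 0.316 CPM in wild-type cells, 1.18 and 1.28 in scrambled cells, 1.39 and 1.82 with shRNA-4057, and 2.91 and 3.16 with shRNA-4058: the scrambled libraries came close to the lowest knock-down library, and the log2 fold change of 1.57 ± 0.48 (SE, at an adjusted p of 0.034) no longer passed without any 1 wild-type or shRNA-4058 library (adjusted p up to 0.089).

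Cholesterol synthesis genes differed between the hairpins. In edgeR's 4-group fit 22 of 23 tested members were lower with shRNA-4057 than with shRNA-4058 and 0 were higher, against 17.8% and 13.5% of all genes. Such a difference was not particular to this list. Glycolysis genes had 17 of 20 lower with shRNA-4057 and 0 higher, and immediate early genes 16 of 22 and 0. Hypoxia genes had 13 of 17 and 3, and T-lineage surface receptors 16 of 25 and 2. DNA replication genes were among those that leaned the other way, with 1 of 34 lower and 15 higher. Against the controls, cholesterol synthesis genes had 1 of 23 tested members higher and 2 lower, both shares under the background. The median log2 fold change was −0.42 with shRNA-4057 and 0.10 with shRNA-4058. HMGCS1, which makes HMG-CoA, was measured at 681 and 732 CPM in wild-type cells, 695 and 670.4 in scrambled cells, 359.8 and 368 with shRNA-4057, and 597 and 586 with shRNA-4058, so that shRNA-4057 was lower than shRNA-4058 by 0.70 on the log2 scale (adjusted p = 1.8e-14 in edgeR's 4-group fit). Its pooled log2 fold change was −0.54 ± 0.16 (SE, at an adjusted p of 0.033), a call lost without 5 of the 8 libraries, both of scrambled, both of shRNA-4057 and the second of wild-type cells (adjusted p up to 0.07). The other members that moved were HSD17B7, at −0.43 ± 0.09 (SE, at an adjusted p of 0.0075), and PMVK, at 0.23 ± 0.07 (SE, at an adjusted p of 0.032), whose call was lost without 5 libraries (adjusted p up to 0.089). Oxidative phosphorylation genes had 7 of 30 higher and 1 lower. That was 26.7% in either direction, against 28.7% of all genes tested and 37.3% of those averaging 1 CPM or more. They were led by UQCRC1 of complex III (0.30), SDHA of complex II (0.28) and NDUFV2 of complex I (−0.39, lost without 6 libraries, adjusted p up to 0.11). The list's median of 0.05 turned to −0.07 with library totals, where 1 moved higher and 8 lower. Against scrambled cells alone 3 moved higher and 4 lower. The higher count was 4 without the first shRNA-4057 or the second wild-type library and 2 without the second shRNA-4058 library.

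Cell cycle genes moved in both directions. Mitosis genes had 12 of 30 tested members higher and 0 lower, and 7 higher and 2 lower with library totals. Against scrambled cells alone 21 moved higher and 1 lower, with a median log2 fold change of 0.33. Against wild-type cells alone 8 moved higher and 2 lower, with a median of 0.08. ANLN, a scaffold of cytokinesis, was measured at 96.4 and 96.8 CPM in wild-type cells, 84.6 and 81.6 in scrambled cells, 121 and 120.5 with shRNA-4057, and 122 and 119 with shRNA-4058, a log2 fold change of 0.42 ± 0.06 (SE, at an adjusted p of 0.0015). KIF20A, a kinesin of cytokinesis, changed by 0.46 ± 0.13 (SE, at an adjusted p of 0.024), a call lost without either scrambled or either shRNA-4058 library (adjusted p up to 0.069). UBE2C, the ubiquitin-conjugating enzyme of the anaphase-promoting complex, changed by 0.44 ± 0.10 (SE, at an adjusted p of 0.011). DNA replication genes had 11 of 34 lower and 4 higher, with 17 lower and 2 higher under library totals. Under the GC and length offset the balance turned, with 7 lower and 9 higher. CDC45, of the replicative helicase, changed by −0.34 ± 0.06 (SE, at an adjusted p of 0.004) and MCM6, a subunit of the same helicase, by −0.30 ± 0.05 (SE, at an adjusted p of 0.0027). RRM2, a ribonucleotide reductase subunit, went the other way, at 240.4 and 248 CPM in wild-type cells, 207 and 207 in scrambled cells, 362 and 366 with shRNA-4057, and 325 and 330.0 with shRNA-4058, a log2 fold change of 0.62 ± 0.08 (SE, at an adjusted p of 0.00072), as did the licensing factor CDT1, at 0.41 ± 0.06 (SE, at an adjusted p of 0.0011). The CCAAT box was present in 19 of 24 mitosis promoters (79.2%), against 35.7% of all promoters, and the TTTGAA element in 16 (66.7%), against 15.4%, both searched on either strand. Of the 9 such members that moved, 6 held the CCAAT box and 4 the TTTGAA element.

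NOTCH1 and MYC list genes had 4 of 17 tested members higher and 1 lower, and 4 higher and 5 lower with library totals. In either direction 29.4% had moved, near the 28.7% of all genes tested and under the 37.3% of those averaging 1 CPM or more. DTX1 (Deltex), a NOTCH target, was measured at 0.416 and 0.227 CPM in wild-type cells, 0.0301 and 0.0859 in scrambled cells, 0.693 and 1.10 with shRNA-4057, and 2.46 and 2.22 with shRNA-4058. The lowest knock-down value was above the highest control, with wide spread between hairpins and a log2 fold change of 3.08 ± 0.67 (SE, at an adjusted p of 0.0079). TRIB2, a pseudokinase that is also a NOTCH target, changed by 1.31 ± 0.18 (SE, at an adjusted p of 0.0011), and NOTCH1 itself did not pass, at 0.19 ± 0.07 (SE, at an adjusted p of 0.075). N-glycan processing genes had 6 of 18 higher and 1 lower. MAN1A1, a Golgi mannosidase, was measured at 2.48 and 2.47 CPM in wild-type cells, 0.111 and 0.107 in scrambled cells, 16.3 and 15.5 with shRNA-4057, and 13.2 and 13.2 with shRNA-4058, a log2 fold change of 3.52 ± 0.86 (SE, at an adjusted p of 0.013). MAN1C1, its paralog, changed by 1.96 ± 0.29 (SE, at an adjusted p of 0.0014) and MGAT1, which starts complex N-glycans, by 0.60 ± 0.06 (SE, at an adjusted p of 0.00036).

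Lysosome and autophagy genes had 6 of 21 tested members higher and 0 lower, among them CTSB, a cathepsin, at 0.47 ± 0.09 (SE, at an adjusted p of 0.0041) and SQSTM1 (p62), an autophagy receptor, at 0.33 ± 0.05 (SE, at an adjusted p of 0.0012). Polycomb genes had 5 of 29 higher and 2 lower, with EZH2, the methyltransferase of histone H3 lysine 27, at −0.34 ± 0.10 (SE, at an adjusted p of 0.024) and PHF19 at 0.45 ± 0.08 (SE, at an adjusted p of 0.0031). EZH2 lost its call without either wild-type or either shRNA-4058 library (adjusted p up to 0.073). With library totals 4 Polycomb genes were higher and 5 lower, and the median of 0.05 turned to −0.07. ATF4 and amino acid stress genes had 3 of 28 higher and 5 lower, 3 lower with the replicate block and 5 higher and 2 lower under the GC and length offset, led by the hormone STC2 at 1.27 ± 0.21 (SE, at an adjusted p of 0.0024), CEBPB at 0.50 ± 0.10 (SE, at an adjusted p of 0.0052) and the proline enzyme PYCR1 at −0.39 ± 0.07 (SE, at an adjusted p of 0.0042), and a median of 0.04 that turned to −0.08 with library totals. Fatty acid synthesis genes had 2 of 13 in each direction, and 11 of 13 were lower with shRNA-4057 than with shRNA-4058 and 1 higher in the 4-group fit, with medians of −0.32 and 0.09 against the controls. Among those that moved were ACSL1, which activates fatty acids, at 0.91 ± 0.19 (SE, at an adjusted p of 0.0063), the elongase ELOVL6 at −0.58 ± 0.06 (SE, at an adjusted p of 0.00028) and the desaturase FADS1 at −0.30 ± 0.10 (SE, at an adjusted p of 0.048), a call lost without 6 libraries (adjusted p up to 0.12). The pooled median of −0.07 turned to 0.02 under the offset. Of 12 RGS genes, which shut off G protein signals, RGS1 and RGS14 moved higher, at 2.01 ± 0.58 (SE, at an adjusted p of 0.026) and 0.39 ± 0.09 (SE, at an adjusted p of 0.013). RGS1 lost its call without either shRNA-4058 library (adjusted p up to 0.071). Of 16 histones H2BC21 and H2AC11 moved higher, at 0.43 ± 0.12 (SE, at an adjusted p of 0.026) and 0.36 ± 0.11 (SE, at an adjusted p of 0.029). The count ran from 0 to 8 with 1 library left out, and both calls were lost without either scrambled library or the second shRNA-4058 library (adjusted p up to 0.082). Counting both directions, 24.1% of Polycomb, 28.6% of ATF4, 30.8% of fatty acid, 16.7% of RGS and 12.5% of histone members had moved. So had 28.6% of lysosome and autophagy, 23.5% of ER chaperone, 27.6% of proteasome, 26.7% of oxidative phosphorylation and 29.4% of NOTCH1 and MYC members. The share was 28.7% over all genes tested and 37.3% over those averaging 1 CPM or more. These lists were therefore near or under the background.

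The genes with the clearest separation over all genes were mostly outside the lists. They were taken as the 10 in each direction with the widest gap between knock-down and control libraries on the log2 CPM scale. HIC1 (GRCh37 chromosome 17, 1957448 to 1966535), a transcriptional repressor and known p53 target, was measured at 55.2 and 55.7 CPM in wild-type cells, 54.1 and 57 in scrambled cells, 172 and 164 with shRNA-4057, and 170.1 and 185 with shRNA-4058. The 4 controls lay close together and the log2 fold change was 1.64 ± 0.05 (SE, at an adjusted p of 5.3e-07). NMUR1 (chromosome 2, 232387898 to 232395156), the neuromedin U receptor, stood at 0.956 and 0.830 CPM in wild-type cells, 0.186 and 0.102 in scrambled cells, 11.6 and 11.6 with shRNA-4057, and 15.9 and 14.8 with shRNA-4058, a log2 fold change of 4.72 ± 0.59 (SE, at an adjusted p of 0.00071). SYTL3 (chromosome 6, 159071046 to 159185908), an effector of vesicle exocytosis, stood at 6.15 and 6.75 CPM in wild-type cells, 1.39 and 1.46 in scrambled cells, 34.4 and 35.9 with shRNA-4057, and 31.0 and 30.3 with shRNA-4058, a log2 fold change of 3.08 ± 0.50 (SE, at an adjusted p of 0.0022). The other genes of this upward set were PDGFRB, SNTB1, CD40LG, KRT3, KRT2, OLFM2 and MAN1A1, with log2 fold changes of 1.64 to 4.72 over the 10.

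In the downward set, CYBB (chromosome X, 37639271 to 37672714), the catalytic subunit of the phagocyte NADPH oxidase, was nearly lost. It was measured at 0.869 and 0.919 CPM in wild-type cells, 7.44 and 7.48 in scrambled cells, 0.0220 and 0.0545 with shRNA-4057, and 0.00904 and 0.0140 with shRNA-4058. The 4 knock-down libraries held 11 counts in all, 1 to 6 each, against 3179 in the controls, a ratio of 0.0047 (95% exact counting interval 0.00235 to 0.00843). SUCNR1, the succinate receptor, held 17 counts against 2040, a ratio of 0.0113 (0.00659 to 0.0182). Both were higher in scrambled than in wild-type cells. L3MBTL1 (chromosome 20, 42118082 to 42179594), a chromatin-compacting reader of methylated histones, stood at 9.38 and 8.73 CPM in wild-type cells, 14.0 and 14.0 in scrambled cells, 3.16 and 3.23 with shRNA-4057, and 2.43 and 2.25 with shRNA-4058, a log2 fold change of −2.06 ± 0.20 (SE, at an adjusted p of 0.00026). DOK3, an adaptor that restrains immune receptors, stood at 9.62 and 9.71 CPM in wild-type cells, 9.39 and 10.1 in scrambled cells, 3.06 and 3.24 with shRNA-4057, and 4.28 and 4.01 with shRNA-4058, with the controls alike and a log2 fold change of −1.41 ± 0.12 (SE, at an adjusted p of 0.00015). The remaining members were NRXN3, SLC43A2, SHTN1, WDR17, ACSL6 and MMP16.

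The 2 controls differed from each other in many of these lists. List medians lay farther from 0 against scrambled than against wild-type cells in 23 of the 33 lists with 10 or more members tested. They were above 0 against both in 22 lists and below 0 against both in 7. Histones had 16 of 16 members higher against scrambled cells alone and 2 against wild-type cells alone, with medians of 0.56 and −0.00472. Hypoxia genes and ribosomal proteins had the larger counts against wild-type cells. Ribosome biogenesis stood at −0.37 against wild-type and −0.48 against scrambled cells, and p53 targets at 0.33 and 0.53.

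**Figure D4:**
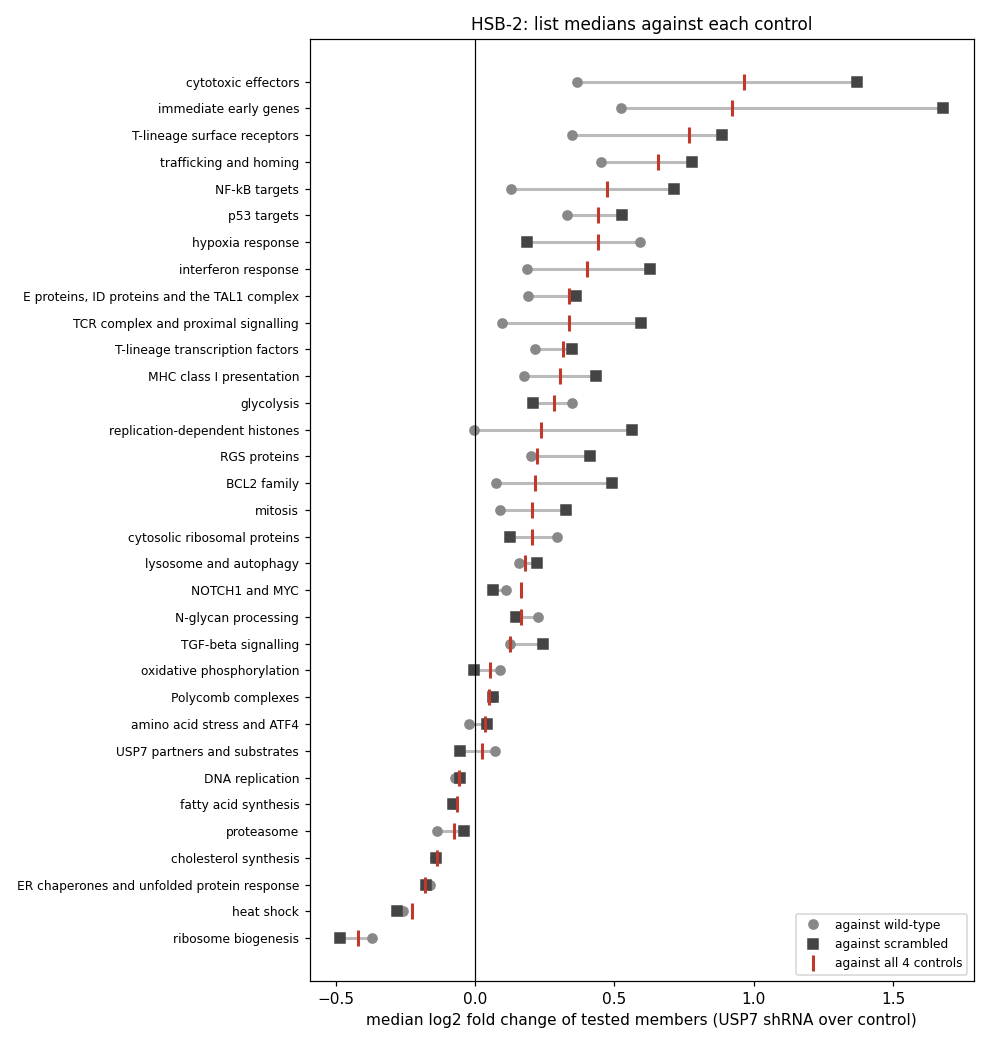
Median log2 fold change of the tested members of each list with 10 or more tested, USP7 shRNA over control, against wild-type cells (circles), scrambled cells (squares) and all 4 controls (bars). Ribosome biogenesis lies below 0 against both controls, and the histone and immediate early lists show the long distances between the 2 controls.

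Markers of other cell types mostly had few reads. Of 33 such markers 12 could be tested, and the other 21 held at most 71 counts over the 8 libraries. The floor that 3 counts allow was 0.0127 to 0.0392 CPM over the 8 libraries, which held 76602847 to 235467749 counts. Of 7 B-lineage markers 3 could be tested and PAX5 moved higher (a call lost without the second scrambled or either shRNA-4058 library, adjusted p up to 0.068). Of 7 myeloid and 9 erythroid markers 3 each could be tested and 0 moved. HBB, MS4A1 and EPCAM had 0 counts in every library. Among kidney-cell markers CDH2 moved lower, at −0.95 ± 0.14 (SE, at an adjusted p of 0.0014), and among natural killer markers NCAM1 moved higher, at 1.75 ± 0.36 (SE, at an adjusted p of 0.0065), with no library above 0.321 CPM. The 2 libraries of every group differed beyond counting noise and none was treated as a duplicate.

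The same comparison in Jurkat was set beside HSB-2 through a test of the difference between the lines (an interaction term in a fit of all 16 libraries). Of 21821 genes tested there, 7701 (35.3%) differed. USP7 was lower in Jurkat too, by −0.97 on the log2 scale (adjusted p = 0.0042), and the difference between the lines did not pass (0.41, adjusted p = 0.12). In ribosome biogenesis, 20 of 24 members were lower in HSB-2 relative to Jurkat and 0 higher, with list medians of −0.42 in HSB-2 and 0.29 in Jurkat. In ribosomal proteins, 59 of 62 differed, all higher in HSB-2, with medians of 0.20 and −0.51. For p53 targets 16 of 27 were higher in HSB-2 and 1 lower, with medians of 0.44 and −0.02, and for interferon genes 17 of 40 were higher and 0 lower, with medians of 0.40 and −0.11.

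**Figure D5:**
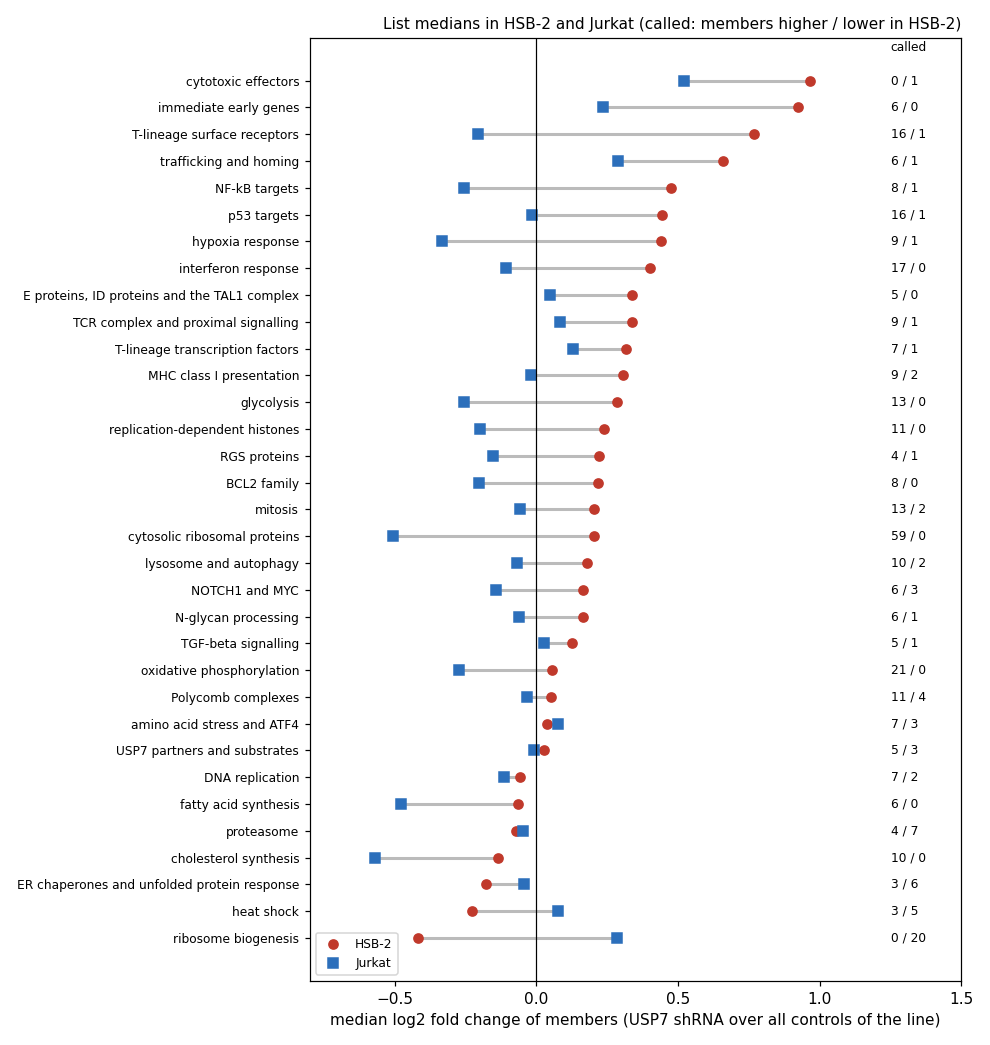
Median log2 fold change of list members in HSB-2 (circles) and Jurkat (squares), USP7 shRNA over all controls of the line, with the members called different between the lines printed at the right (higher / lower in HSB-2). Ribosome biogenesis and cytosolic ribosomal proteins have medians on opposite sides of 0 in the 2 lines.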

How the data were processed

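Total RNA of 16 libraries was sequenced after ribosomal RNA depletion, and the 8 HSB-2 libraries are described here. The authors deposited raw read counts per gene, made with HTSeq 0.6.1p1 per the submitters' processing notes, which also name BWA, STAR and CASAVA. The study's methods align to GRCh37. The strand setting and annotation release are not given in the sources used here, so overlapping and antisense genes are uncertain, as are members of near-identical families. The 37 mitochondrial genes are listed at 0. Of 57820 gene identifiers, 96.1% were paired with a symbol. Gene coordinates come from an annotation on GRCh37, and promoters came from RefSeq on GRCh38.p14.

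Groups came from sample titles. The counts were filtered with filterByExpr (20185 genes kept of 35019 with any count), scaled by TMM (factors 0.935 to 1.07) and tested with edgeR 4.0.16 in R 4.3.3, by quasi-likelihood with Benjamini-Hochberg adjustment, as knock-down against control in 1 model of 2 groups. The common biological coefficient of variation was 16.3% in that model and 3.79% when all 4 groups had their own mean. The alternatives were DESeq2 1.42.0, other filters and scalings, 1 control alone, a replicate block and leaving out each library. The code was tested on simulated data. Depth was 76602847 to 235467749 counts a library. Intervals and floors cover counting error only.

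The 35 gene lists, beside 6 lists of cell type markers, held 808 entries of 794 distinct symbols, 14 of them on more than 1 list, and 761 entries could be tested while 11 could not be matched. The members and lists were chosen with earlier results of these data known. The genes named were, for each list, at least the 3 that moved with the largest log2 fold change, and other members with a stated role, apart from some that are not reported here. The 10 genes with the widest gap in each direction, between the nearest knock-down and control libraries on the log2 CPM scale, were taken among genes averaging 1 CPM or more that were also called against each control alone. Replicate numbers do not pair the libraries, since the correlations between same-numbered libraries ran from −0.214 to 0.149.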

Additional observations from a re-analysis of the deposited data

Results flagged for a closer look

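1 library stood far from the other 3 of its group, by Dixon's test, for CD28 (1.62 CPM, lowest of the shRNA libraries) and BIK (9.95 CPM, lowest of the controls) and HSF1 (87.8 CPM, lowest of the controls). Each group pooled wild-type with scrambled cells or both hairpins, so the usual rate of about 1 in 20 past that limit does not apply.

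The shRNA effect differed between HSB-2 and Jurkat in many of the genes examined, by the interaction term of edgeR's quasi-likelihood fit over all 16 libraries, where 35.3% of all genes passed. Each value that follows is the log2 fold change in HSB-2 minus that in Jurkat. That of CYBB, near 0 counts with the hairpins, depends on the prior count and is no bound. Among the genes with the widest gap it was 2.78 for SYTL3, 5.03 for PDGFRB, 2.08 for SNTB1, 1.53 for CD40LG, 1.1 for HIC1, 0.834 for KRT2, 2.68 for OLFM2, −8.87 for CYBB, −1.95 for L3MBTL1, −2.54 for SLC43A2, −1 for SHTN1, −1.58 for WDR17, −2.4 for DOK3, −1.59 for ACSL6 and −2.51 for MMP16. For p53 targets the values were 1.2 for ZMAT3, 2.07 for TP53INP1, 0.984 for PHLDA3, 0.745 for POLH, 1.26 for DDB2, 0.685 for FDXR, 0.822 for BBC3, 0.766 for BAX, 0.796 for SESN1, 0.822 for CCNG1 and 0.491 for PMAIP1. The difference in ribosome biogenesis genes was −1.25 for NOP16, −0.946 for BOP1, −1.3 for POLR1B, −0.9 for POLR1A, −0.757 for NOP2, −1.06 for DDX21, −0.473 for NCL, −0.296 for UBTF and −1.02 for WDR43. In the marker lists it came to 0.908 for CD5, 0.855 for CD3E, 1.12 for CD3D, 0.919 for TCF7, −0.778 for CDH2, 1.54 for NCAM1 and 3.69 for PAX5. Among heat shock genes it was −1.64 for HSPH1, −1.43 for HSPE1, −0.967 for HSP90AA1, −0.599 for HSPD1, 0.488 for BAG3 and 0.512 for HSF1. For T-lineage surface receptors the values were 2.85 for CD28, 2.7 for IL2RA, 2.38 for CD38, 0.586 for CD6 and 2.02 for CD69. The difference in NOTCH1 and MYC genes was −0.771 for MYC, 2.8 for DTX1, 1.6 for MYCN and 0.518 for NOTCH1. In interferon response genes it came to 1.39 for RSAD2, 2.02 for EPSTI1, 2.83 for GBP2 and 0.897 for IRF1. Among E proteins, ID proteins and the TAL1 complex genes it was 1.33 for CBFA2T3, 0.635 for ID3 and 0.36 for TCF12. For MHC class I presentation genes the values were 0.813 for HLA-B, 1.23 for PSMB10 and 0.916 for HLA-F. The difference in TCR complex and proximal signalling genes was 1.58 for UBASH3B, 0.929 for THEMIS and −0.535 for PTPRC. In amino acid stress and ATF4 genes it came to 0.74 for STC2, 0.547 for CEBPB and −0.469 for PYCR1.

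Among cytosolic ribosomal proteins it was 1.08 for RPS19, 1.01 for RPL12 and 1.06 for RPS3. For glycolysis genes the values were 1.93 for ALDOC, 0.94 for GPI and 0.774 for GAPDH. The difference in hypoxia response genes was 1.24 for ANKRD37, 2.04 for EGLN3 and 3.09 for ADM. In DNA replication genes it came to 0.513 for RRM2 and 1.14 for CDT1. Among ER chaperones and unfolded protein response genes it was −0.444 for HYOU1 and −0.639 for HSP90B1. For MHC class II presentation genes the values were 3.97 for HLA-DRB1 and 2.62 for HLA-DQB1. The difference in N-glycan processing genes was 4.32 for MAN1A1 and 0.779 for MGAT1. In Polycomb complexes it came to −0.389 for EZH2 and 0.563 for PHF19. Among T-lineage transcription factors it was 0.761 for GATA3 and 0.326 for ETS1. For immediate early genes the values were 1.24 for NR4A1 and 2.18 for DUSP4. The difference in lysosome and autophagy genes was 0.7 for CTSB and 0.342 for SQSTM1. In mitosis genes it came to 0.533 for UBE2C and 0.334 for ANLN. Among oxidative phosphorylation genes it was 0.631 for UQCRC1 and 0.675 for SDHA. For proteasome genes the values were −0.872 for PSMA2 and −0.694 for PSMD12. The difference in replication-dependent histones was 0.553 for H2BC21 and 0.626 for H2AC11. In BCL2 family genes it came to 0.672 for BIK. Among NF-kB targets it was 1.3 for TRAF1. For TGF-beta signalling genes the value was 1.02 for SMAD7. The difference in USP7 partners and substrates was 0.356 for FOXO3. In fatty acid synthesis genes it came to 1.62 for ACSL1. Among trafficking and homing genes it was 0.844 for ITGA5.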

How the results depend on the processing

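Counts that follow are of genes or list members that moved higher unless "lower" is written. Under 4 groups with the mean of hairpins against the mean of controls, 6043 genes were called higher and 5996 lower, with 5 histones, 1 E-protein target and 10 Polycomb genes. DESeq2 gave 5 histones and 10 Polycomb genes. The GC and length offset gave 4718 called higher and 4473 moved higher, 0 cholesterol, 2 ATF4, 7 replication and 2 proteasome genes lower, and 5 histones, 47 ribosomal proteins, 10 lysosome and 13 Polycomb genes. Keeping all genes with a count gave 4 histones and 4 oxidative phosphorylation genes, and a mean of 1 CPM or more left 0 class II genes. Library totals gave 1956 called higher and 4908 lower, 1816 and 4551 moved. Their list counts were 6 cholesterol, 11 ER, 17 replication and 19 proteasome genes lower, and 1 fatty acid, 7 glycolysis, 7 mitosis, 0 histone, 9 ribosomal protein, 1 oxidative phosphorylation, 5 E protein, 4 NF-kB, 2 USP7 partner, 3 TGF-beta and 1 RGS genes.

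Against scrambled cells alone, where 20.9% of all genes moved higher and 18.2% lower, the counts were 31 interferon, 21 mitosis, 16 histone, 3 oxidative phosphorylation (4 lower), 11 lysosome, 22 TCR, 1 E-protein target, 7 cytotoxic, 21 immediate early, 14 NF-kB, 7 NOTCH1 and MYC, 8 Polycomb and 6 RGS genes, with 1 cholesterol gene lower. Against wild-type cells alone, where 13.1% moved higher and 11.6% lower, they were 1 class II, 17 glycolysis, 13 hypoxia, 55 ribosomal protein, 5 E protein and 1 E-protein target genes, with 7 ER genes lower.

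With a replicate block 2555 genes were called higher and 2414 lower, with 1 cholesterol and 3 ATF4 genes lower and 4 NF-kB genes. Same-numbered libraries correlated from −0.214 to 0.149, so the pairing is of numbers only. The interaction count of 7701 was 7284 with that block.

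Without 1 library, genes called higher ran from 2160 to 3166 and lower from 2088 to 2937, and moved higher from 2153 to 3050 and lower from 2081 to 2776. List counts ran from 9 to 19 for interferon, 1 to 3 for class II, 2 to 9 for NF-kB, 2 to 7 for TGF-beta, 1 to 3 for RGS, 9 to 15 for trafficking, 0 to 8 for histones, 2 to 7 for oxidative phosphorylation, 0 to 1 for E-protein targets, 3 to 6 for cytotoxic, 8 to 13 for mitosis and 8 to 15 for immediate early genes. For genes lower they were 1 to 2 for cholesterol and 3 to 5 for ATF4.

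Of 161 named genes called, 45 lost the call under at least 1 of 17 alternatives and 35 without 1 library. PTPRC turned from lower to higher (0.0409, adjusted p = 0.722) under the GC and length offset. The cause of these changes was not tested.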
